A study of Mus musculus with 6 samples.

Results

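Cells set their cholesterol supply by reading the cholesterol of their own endoplasmic reticulum. The transcription factor SREBP2, made as a membrane protein from Srebf2, is carried to the Golgi by its escort SCAP (Scap) when sterols are scarce, is cut there, and switches on genes of cholesterol synthesis and uptake. When sterols are plentiful, the retention proteins INSIG1 and INSIG2 hold SCAP and SREBP2 back. Cholesterol that arrives with lipoproteins leaves the lysosome through NPC2 and NPC1, moves between membranes on carriers such as STARD4, and is stored as ester by SOAT1, while MYLIP (also called IDOL) marks lipoprotein receptors for degradation. Liver sinusoidal endothelial cells are known for heavy endocytic traffic, which brings lipoprotein and membrane cholesterol through this route.

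The 9 genes Srebf2, Scap, Insig1, Insig2, Npc1, Npc2, Soat1, Stard4 and Mylip were taken by symbol from a table of 26264 genes, and all 9 were found and passed the filter on low values, as did 13739 genes in all. Polyadenylated RNA had been sequenced from CD31-positive cells sorted from 1 liver lobe of C57BL6 mice. One group ate a control diet and the other ate a diet with 1200 ppm PLX5622, a kinase inhibitor of the macrophage growth factor receptor CSF1R, both for 1 month and with 3 libraries each. The labels call each library a biological replicate. They name no transgene and give neither the age nor the number of mice behind a library. The p-values therefore set a difference between the diets against the spread between these libraries. The series asks if PLX5622 alters cholesterol metabolism in endothelium outside the brain.

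The sort held endothelial RNA with some RNA of other liver cells. All 14 endothelial markers were detected in every library, with a summed level of 18556 to 21465 TPM on the control diet and 18684 to 20666 TPM on PLX5622 (TPM is a share of all transcripts, corrected for gene length). The 15 hepatocyte markers summed to 4155 TPM in control replicate 1, to 2056 and 1792 TPM in the other control libraries, and to between 1178 and 2400 TPM on PLX5622, and none was at 0 in any library. On the control diet the 15 Kupffer cell markers, of resident macrophages, summed to 143 to 243 TPM. On PLX5622 they summed to 75.4 to 129 TPM, without overlap. In log2 fold change 14 of the 14 tested were below 0 (Clec4f -1.47, Csf1r -1.17), beside 53.8% of all genes tested. The 14 ranged from -1.81 to -0.12 with a median of -0.84, and limma called none at an adjusted p under 0.05. The authors' deposited table calls 1 of the 15, beside 0.0729% of all its genes. Alb, the hepatocyte gene of serum albumin, was at -1.13, the lowest of the 15 hepatocyte markers, and its libraries overlapped between the diets. Of these markers 12 were below 0 and 3 above, with a median of -0.31 and a highest value of 0.18. Pecam1, the gene of CD31, had 1682 ± 259 TPM on the control diet and 1712 ± 148 TPM on PLX5622 (SD, n = 3 each). Markers of stellate cells summed to at most 105 TPM, of cholangiocytes to at most 80.4 TPM, of platelets and erythroid cells to at most 43.0 TPM and of lymphocytes to at most 12.3 TPM; 7 of the 8 lymphocyte markers were at 0 in at least 1 library, as was the cholangiocyte marker Krt7, and the haemoglobin genes Hba-a1 and Hbb-bs were listed at 0 in all. Recovered reads summed to 14517954 to 32732213 per library over the 15097 genes of the authors' deposited table, which is not the full sequencing depth. In bulk RNA, fewer cells of a type and less RNA per cell cannot be told apart.

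SREBP2 acts at promoters through short sequence elements. Windows of the 250 bases before the transcription start were taken from RefSeq (GRCm38.p6, another build than that of the expression data) for 7 of the 9 genes; Npc1 and Stard4 have no window here. The windows of Srebf2 and Insig1, textbook targets of SREBP2 and so of their own pathway, are shown together with that of Mylip, the member with the highest RNA level. Capitals mark matches on either strand to TCACNCCA (a shortened sterol regulatory element, chosen after the sequences were seen), CCAAT and GGGCGG (its reverse is CCGCCC), the last 2 being the boxes bound by NF-Y and Sp1, the usual partners of SREBP2. Each is written 5′ to 3′ along the gene.
Srebf2, chr15:82147019-82147268, plus strand: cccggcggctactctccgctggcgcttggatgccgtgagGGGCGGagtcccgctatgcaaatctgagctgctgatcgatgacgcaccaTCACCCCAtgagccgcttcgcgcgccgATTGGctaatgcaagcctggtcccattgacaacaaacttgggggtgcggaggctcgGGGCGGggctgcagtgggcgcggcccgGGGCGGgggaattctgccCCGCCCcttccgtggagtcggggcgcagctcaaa
Insig1, chr5:28071162-28071411, plus strand: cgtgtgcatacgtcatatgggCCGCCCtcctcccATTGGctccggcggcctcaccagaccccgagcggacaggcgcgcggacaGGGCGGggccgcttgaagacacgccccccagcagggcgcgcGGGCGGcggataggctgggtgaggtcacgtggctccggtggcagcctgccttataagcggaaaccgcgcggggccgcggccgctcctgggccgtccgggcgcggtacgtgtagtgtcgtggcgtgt
Mylip, chr13:45389492-45389741, plus strand: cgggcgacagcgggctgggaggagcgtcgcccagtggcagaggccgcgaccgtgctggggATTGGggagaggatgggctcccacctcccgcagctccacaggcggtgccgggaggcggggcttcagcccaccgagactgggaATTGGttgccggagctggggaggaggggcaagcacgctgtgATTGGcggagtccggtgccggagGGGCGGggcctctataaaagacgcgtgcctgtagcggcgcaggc

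The full element TCACNCCAC matched in 0 of the 10 windows of these genes and in 1.05% of all 32851 windows of the table. The shortened form, which every full match also contains, matched in 1 of the 10, that of Srebf2, at bases 162 to 155 before the start, and in 3.67% of all windows. In the same Srebf2 window a reversed CCAAT box lay at bases 135 to 131 before the start. CCAAT was present in 6 of the 10 windows and in 33.8% of all, and GGGCGG in 7 of the 10 and in 32.7% of all. Insig2 has 3 windows, of which 1 held 3 CCAAT boxes and the other 2 held 1 GC box each, while the Scap windows, which overlap each other, held no CCAAT box. These matches describe letters and are not evidence that a factor binds.

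The RNA of these genes spanned a wide range of levels. Mylip was the highest at a mean of 356 TPM over the 6 libraries, above 96.9% of the genes tested, and Npc2 followed at 119 TPM, above 88.5%. Insig1, Srebf2, Scap, Stard4 and Insig2 lay together between 43.6 and 53.3 TPM, then came Npc1 at 25.8 TPM and Soat1 at 11.4 TPM, the last above 33.7% of genes tested. Mylip was above Npc2, Npc2 above Insig1, Insig2 above Npc1 and Npc1 above Soat1 in 6 of 6 libraries, with no overlap of their ranges. Within the middle group neighbours did not separate: Insig1 was above Srebf2 in 4 of 6 libraries and Srebf2 above Scap in 4 of 6. Scap was above Stard4 in 5 of 6 libraries and Stard4 above Insig2 in 5 of 6.

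**Figure D1:**
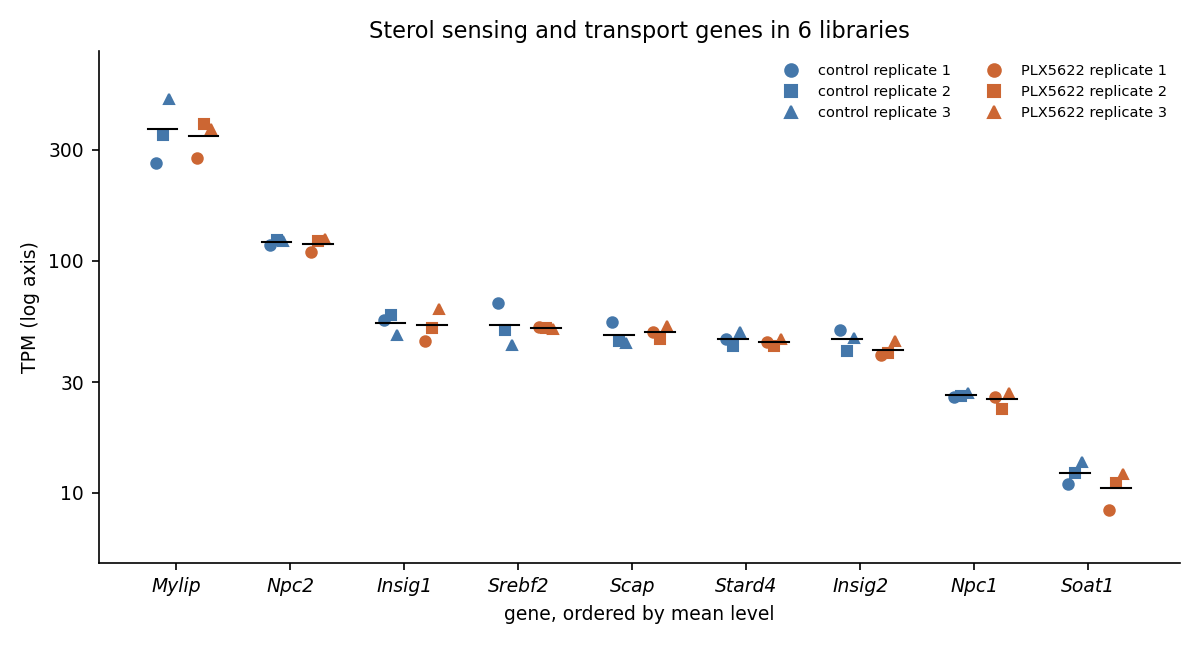
TPM of the 9 genes (log axis, ordered by mean level) in each library, with control libraries in blue, PLX5622 libraries in orange, a symbol for each replicate number and a bar at each mean. The diets overlap in every gene, and Mylip, from 263 to 495 TPM, stands above all others.

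Diet made no detectable difference to any of the 9. On log2(TPM + 1), limma called 0 of the 9 at an adjusted p under 0.05 (adjusted p = 0.99998 for each, over all genes tested), in a comparison where it called 0% of all 13739 genes; at an unadjusted p under 0.05 the numbers were 0 of 9 against 3.34% of all genes, 226 higher and 233 lower. Libraries of the diets overlapped in all 9 genes, while 8.68% of all genes showed no overlap. The log2 fold change of PLX5622 over control was below 0 in 8 and above 0 in 1 (Scap), with a median of -0.04; over all genes tested 53.8% were below 0 and the median was -0.02. The DESeq2 results in the authors' deposited table call 0 of the 9 at an adjusted p under 0.05, where they call 0.0729% of 15097 genes, and have 0 of the 9 at an unadjusted p under 0.05, where 3.18% of its genes lie. In that deposited table the fold changes of the 9 have the same signs, from -0.21 for Soat1 to 0.05 for Scap.

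**Figure D2:**
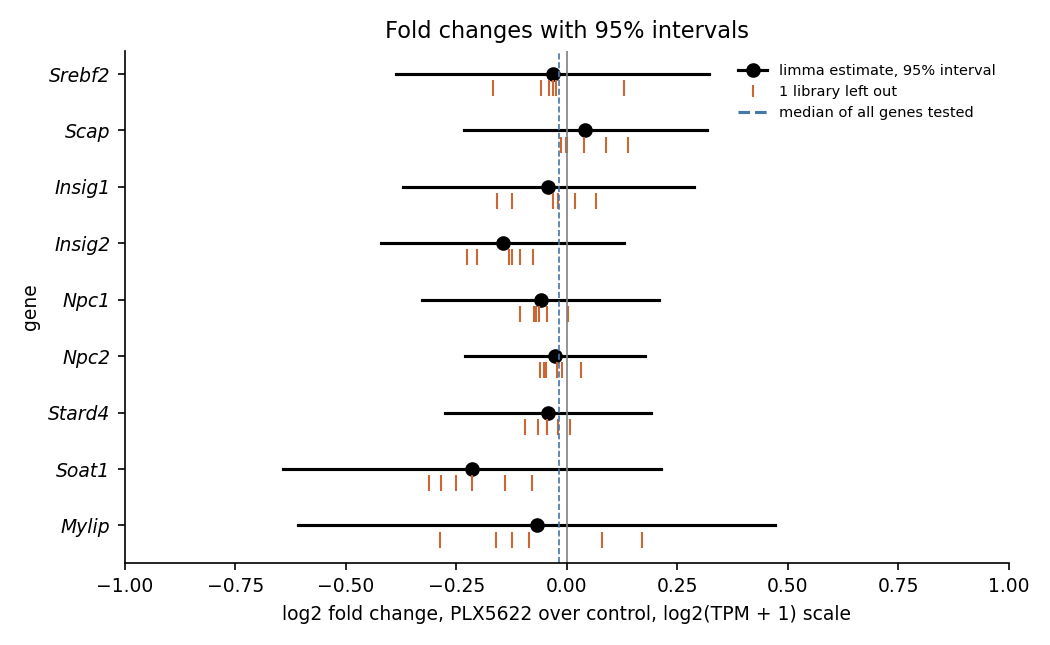
Log2 fold change (PLX5622 over control, from log2(TPM + 1)) of the 9 genes (black dots) with 95% intervals of the limma fit (lines), and the estimate with each library left out in turn (orange ticks); the dashed line is the median of all genes tested. Every interval crosses 0, and the widest are those of Mylip (-0.61 to 0.47) and Soat1 (-0.64 to 0.21).

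The transcription factor and its escort stood at close to equal levels. Srebf2, which encodes SREBP2, had 65.6, 50.3 and 43.2 TPM in control replicates 1 to 3 and 51.7, 51.0 and 50.6 TPM in PLX5622 replicates 1 to 3, from 997 to 2910 reads a library. The control libraries spread on both sides of the PLX5622 libraries, which were nearly alike, and the SD of the control libraries was 11.5 TPM against 0.550 TPM for PLX5622 (n = 3 each). For Srebf2 the fold change between the diets was -0.03 in log2 (95% interval -0.39 to 0.32), which covers changes from 23.5% lower to 25.1% higher. Control replicate 1, with the highest Srebf2, was also the library with the highest summed hepatocyte markers. These markers summed to 4155, 2056 and 1792 TPM in control replicates 1 to 3. In PLX5622 replicates 1 to 3 they summed to 1178, 1420 and 2400 TPM. Their part in the Srebf2 values was not tested. Without control replicate 1 the log2 fold change of Srebf2 was 0.13 (95% interval -0.13 to 0.39).

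Scap, the escort that senses membrane cholesterol, had 54.6, 44.9 and 44.1 TPM in control replicates 1 to 3 and 49.4, 45.9 and 52.2 TPM in PLX5622 replicates 1 to 3. Control replicate 1 was again the highest library, and the other control libraries were the lowest of the 6. Its log2 fold change was 0.04 (95% interval -0.23 to 0.32), and 0.14 (95% interval -0.12 to 0.39) without control replicate 1. In the authors' deposited table it is 0.05 (SE 0.149).

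The retention proteins are encoded by a pair of related genes, of which Insig1 is known as a target of SREBP2 and Insig2 is not. Insig1 had 55.4, 58.5 and 47.8 TPM in control replicates 1 to 3 and 44.9, 51.4 and 61.6 TPM in PLX5622 replicates 1 to 3. Both the lowest and the highest library of Insig1 were PLX5622 libraries. For Insig1 the estimated fold change was -0.04 in log2 (95% interval -0.37 to 0.29), between 22.6% lower and 22.0% higher.

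Insig2 had 50.4, 40.7 and 46.6 TPM in control replicates 1 to 3 and 39.1, 40.1 and 44.9 TPM in PLX5622 replicates 1 to 3. Both PLX5622 replicates 1 and 2 lay below every control library, and PLX5622 replicate 3 lay among them. Its log2 fold change of -0.14 (95% interval -0.42 to 0.13, unadjusted p = 0.258 by limma) was the second lowest of the 9. It was -0.08 without control replicate 1 and -0.23 without control replicate 2. The authors' deposited table gives -0.14 (SE 0.155).

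The lysosomal pair, with Stard4, varied least. Npc2, the soluble protein that takes cholesterol from lipoproteins in the lysosome, had 116, 123 and 121 TPM in control replicates 1 to 3 and 108, 122 and 123 TPM in PLX5622 replicates 1 to 3. PLX5622 replicate 1 was the lowest, and the others lay within a narrow band. Its log2 fold change was -0.03 (95% interval -0.23 to 0.18), the narrowest interval of the 9, which covers changes from 14.8% lower to 13.1% higher.

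Npc1, the membrane protein that receives cholesterol from NPC2, had 25.9, 26.2 and 26.9 TPM in control replicates 1 to 3 and 25.8, 23.1 and 27.0 TPM in PLX5622 replicates 1 to 3. Apart from PLX5622 replicate 2, the libraries lay between 25.8 and 27.0 TPM. The log2 fold change was -0.06 (95% interval -0.33 to 0.21). Within a diet the SD of Npc1 was 0.08 on the log2 scale, smaller than in all but 7.38% of genes tested. Npc2, also at 0.08, and Stard4, at 0.08, were as steady, with 6.56% and 6.94% of genes below them.

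Stard4, a soluble carrier that moves cholesterol between membranes, had 45.8, 42.7 and 49.4 TPM in control replicates 1 to 3 and 44.6, 43.1 and 45.9 TPM in PLX5622 replicates 1 to 3. The PLX5622 libraries lay inside the range of the control libraries. Its log2 fold change was -0.04 (95% interval -0.28 to 0.19). It was 0.01 without control replicate 3, the highest library.

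Soat1, the enzyme that esterifies cholesterol for storage, was the lowest in level and had the lowest fold change. It had 10.9, 12.2 and 13.6 TPM in control replicates 1 to 3 and 8.43, 11.0 and 12.0 TPM in PLX5622 replicates 1 to 3, from 314 to 665 reads a library. PLX5622 replicate 1 was the lowest library, and the other PLX5622 libraries overlapped the control libraries. For Soat1 the estimate was -0.21 in log2 (95% interval -0.64 to 0.21, unadjusted p = 0.281 by limma), from 35.9% lower to 16.0% higher, and -0.08 without PLX5622 replicate 1. SOAT1 is known to be abundant in macrophages, and the summed Kupffer cell markers were also lowest in PLX5622 replicate 1. These markers summed to 214, 143 and 243 TPM in control replicates 1 to 3. In PLX5622 replicates 1 to 3 they summed to 75.4, 129 and 105 TPM. Their part in the Soat1 values was not tested.

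Mylip, a ubiquitin ligase of lipoprotein receptors and a classical target of the oxysterol receptor LXR, varied most. It had 263, 347 and 495 TPM in control replicates 1 to 3 and 277, 386 and 367 TPM in PLX5622 replicates 1 to 3, from 6422 to 11823 reads a library, so that counting error at its lowest read number is 1.25% of the value. The highest library was 1.88 times the lowest, and both ends of the range were control libraries. Its SD within a diet was 0.37 on the log2 scale, larger than in 76.5% of genes tested. The log2 fold change was -0.07 (95% interval -0.61 to 0.47); it was -0.29 without control replicate 1 and 0.17 without control replicate 3, so its direction rests on single libraries.

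Mylip was lowest in replicate 1 of each diet, and the scavenger receptor gene Stab2 of sinusoidal endothelium was low in the same libraries. Stab2 had 343, 1007 and 993 TPM in control replicates 1 to 3 and 279, 474 and 684 TPM in PLX5622 replicates 1 to 3. The vessel gene Vwf, named after its values were seen, went the other way, with 2984 TPM in control replicate 1 and 2827 TPM in PLX5622 replicate 1 and between 1625 and 2333 TPM elsewhere. Of the 14 endothelial markers, 6 were lowest in replicate 1 of both diets, 2 were highest there and 6 were neither. The share of all genes with such a pattern was not counted, so it is not known if these counts are unusual. What these endothelial genes contribute to the spread of Mylip was not tested.

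**Figure D3:**
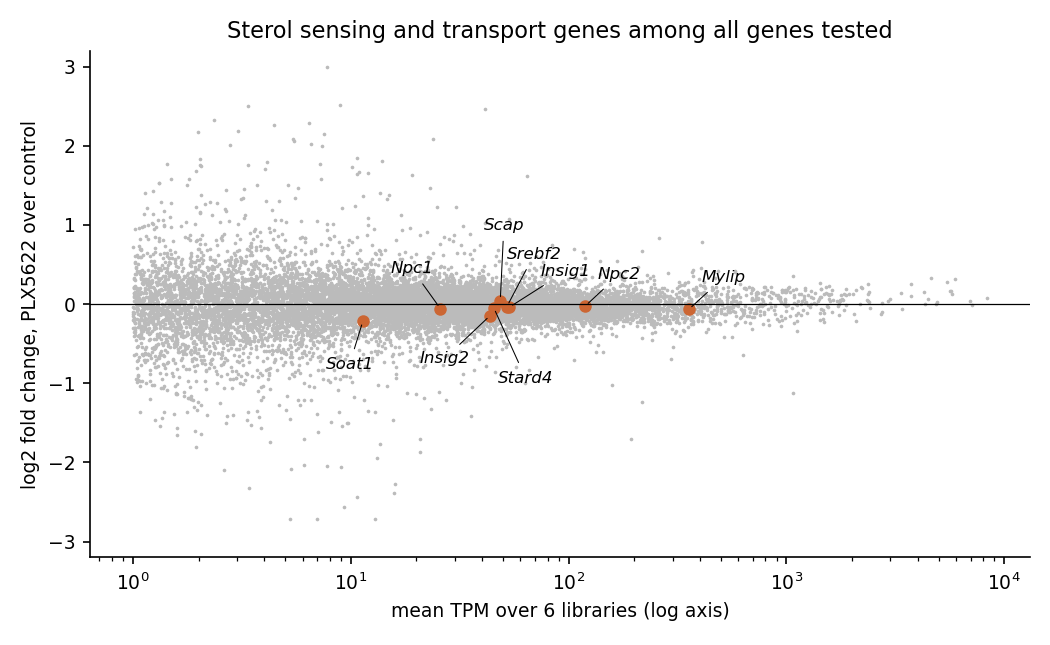
Log2 fold change of PLX5622 over control against the mean TPM (log axis) for the 13739 genes tested (grey), with the 9 sterol sensing and transport genes in orange. The 9 lie between -0.21 and 0.04 within the dense band of genes of like level.

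Ratios between partners inside a library remove what raises or lowers both, and no difference between the diets was detectable in any of them. For the 4 ratios reported, of 5 compared, on log2(TPM + 1), the exact two-sided permutation p over 3 against 3 libraries was between 0.3 and 0.8, where 0.1 is the smallest p possible, so the design could not reach 0.05, and each adjusted p over the 5 was 1. Insig1 over Insig2 was above 0 in 6 of 6 libraries, at 0.13, 0.51 and 0.04 in control replicates 1 to 3 and 0.19, 0.35 and 0.45 in PLX5622 replicates 1 to 3. The libraries of the diets overlapped, and the difference was 0.10 (exact permutation p = 0.7, n = 3 each). Npc2 exceeded Npc1 in 6 of 6 libraries, at 4.50, 4.68 and 4.50 times its TPM on the control diet and 4.20, 5.29 and 4.58 times on PLX5622. Control libraries were nearly equal in this ratio and lay within the range of the PLX5622 libraries (difference 0.03 in log2, exact permutation p = 0.8, n = 3 each).

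Srebf2 was below Srebf1, the gene of the related factor that drives fatty acid synthesis, in 6 of 6 libraries. The log2 ratio was -0.36, -0.30 and -0.53 in control replicates 1 to 3 and -0.42, -0.21 and -0.19 in PLX5622 replicates 1 to 3. PLX5622 replicates 2 and 3 lay above every control library and PLX5622 replicate 1 among them (difference 0.12, exact permutation p = 0.3, n = 3 each). Scap over Insig1 ranged from -0.37 to 0.13 with no order by diet (difference 0.08, exact permutation p = 0.6, n = 3 each).

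Vldlr and Lrp8, lipoprotein receptor genes whose proteins are known targets of MYLIP, were close to undetected, and both were under the filter on low values. Vldlr reached at most 1.38 TPM and Lrp8 at most 0.783 TPM.

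**Figure D4:**
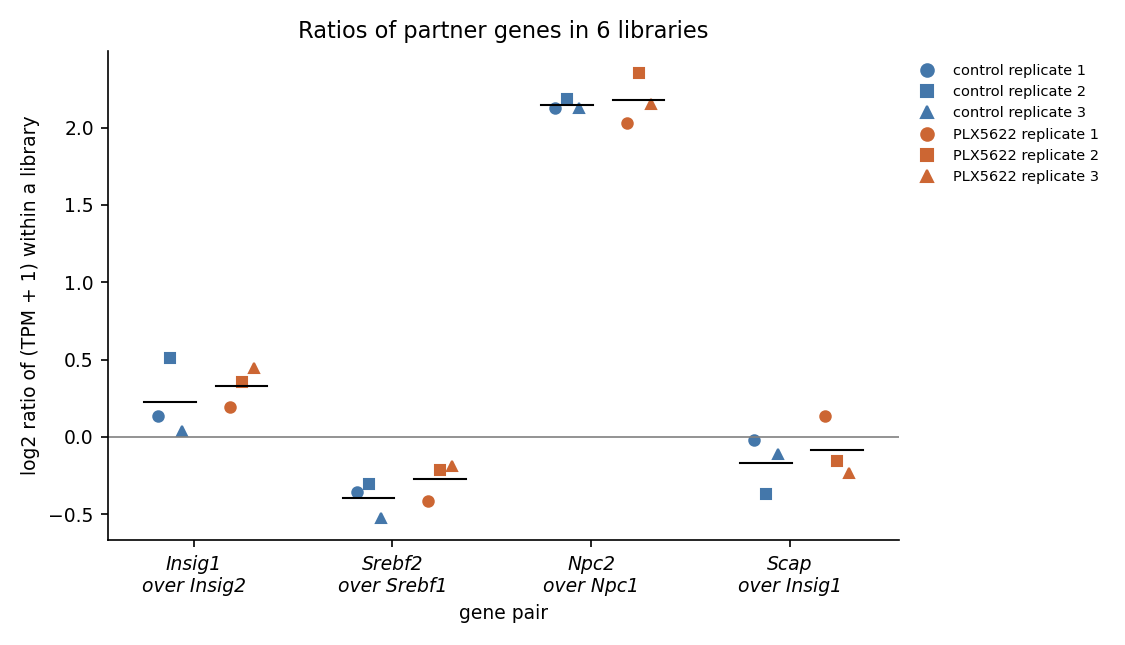
Log2 ratio of (TPM + 1) between 4 pairs of genes in each library, with control libraries in blue, PLX5622 libraries in orange and a bar at each mean. The diets overlap in every pair, and Npc2 over Npc1 stands above 2 in every library.

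The rest of the pathway was read from 6 further lists, and limma called none of their genes in either direction at an adjusted p under 0.05. In SREBP processing and degradation (proteases, vesicle coat and ubiquitin ligase machinery), 18 of 26 genes tested were below 0 with a median of -0.06. The smallest p belonged to Sar1a, a GTPase of the vesicles that carry SCAP, at -0.15 (95% interval -0.40 to 0.09), and to Nploc4, which helps extract ubiquitinated proteins from the membrane, at -0.16 (95% interval -0.41 to 0.09). Mbtps1, the first protease that cuts SREBP2, was at 0.00 (95% interval -0.25 to 0.25), with 92.5 ± 9.71 TPM on the control diet and 92.5 ± 5.75 TPM on PLX5622 (SD, n = 3 each). Srebf1 was at -0.15 (95% interval -0.49 to 0.18).

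Among genes of sterol transfer and lysosomal egress, 16 of 27 tested were below 0 and 11 above, with a median of -0.02. Gramd1a, which moves cholesterol from the plasma membrane to the endoplasmic reticulum, was at 0.15 (95% interval -0.08 to 0.38) and Osbpl7, of the oxysterol binding protein family, at 0.23 (95% interval -0.13 to 0.59). Lipa, the lysosomal lipase that frees the cholesterol handed to NPC2, was at -0.08 (95% interval -0.30 to 0.14), with 126 ± 6.18 TPM on the control diet and 119 ± 10.2 TPM on PLX5622 (SD, n = 3 each). In ester formation and hydrolysis, 6 of 8 genes were above 0 with a median of 0.10, and the smallest p belonged to the lipases Lipe, at 0.28 (95% interval -0.16 to 0.72), and Pnpla2, at 0.12 (95% interval -0.11 to 0.35).

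The partners and substrates of MYLIP with the LXR receptors had 4 of 9 genes below 0 and a median of 0.05. Rxra, the partner receptor of LXR, was at -0.12 (95% interval -0.32 to 0.08) and Ube2d2a, a ubiquitin conjugating enzyme, at -0.14 (95% interval -0.46 to 0.17). Of 11 genes listed here as LXR targets 6 were below 0, with a median of -0.15. Whether LXR regulates each of them in these cells was not tested. Abca1, the cholesterol efflux transporter, was at 0.23 (95% interval -0.13 to 0.59). Abca7, another transporter of its family, was at -0.23 (95% interval -0.51 to 0.06). The desaturase gene Scd1 was at -1.70 (95% interval -3.01 to -0.40, unadjusted p = 0.0172 and adjusted p = 0.99998 by limma). It was the 1 gene of the 98 tested in the 6 lists with an unadjusted p under 0.05, beside 3.34% of all genes tested. Scd1 is highly expressed in hepatocytes, and it too was highest in control replicate 1. It had 537, 219 and 138 TPM in control replicates 1 to 3. In PLX5622 replicates 1 to 3 it had 139, 40.4 and 80.9 TPM. The hepatocyte markers summed to 4155, 2056 and 1792 TPM in these control libraries and to 1178, 1420 and 2400 TPM in these PLX5622 libraries. The part of hepatocyte RNA was not tested.

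Enzymes of cholesterol synthesis that SREBP2 drives had 17 of 19 genes below 0, with a median of -0.14. Hmgcs1 was at -0.39 (95% interval -0.82 to 0.05) and Sc5d at -0.43 (95% interval -0.94 to 0.08). Hmgcs1 was highest in control replicate 1 at 36.3 TPM, as Srebf2 was. The direction of the enzymes was already known when the list was drawn up, so it adds no independent evidence. No gene of the 6 lists passes an adjusted p under 0.05 in the authors' deposited table, in which 1 LXR target and 2 enzymes are lower at an unadjusted p under 0.05. These are 3 of the 103 list genes in the deposited table, a share near the 3.18% of all its genes.

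**Figure D5:**
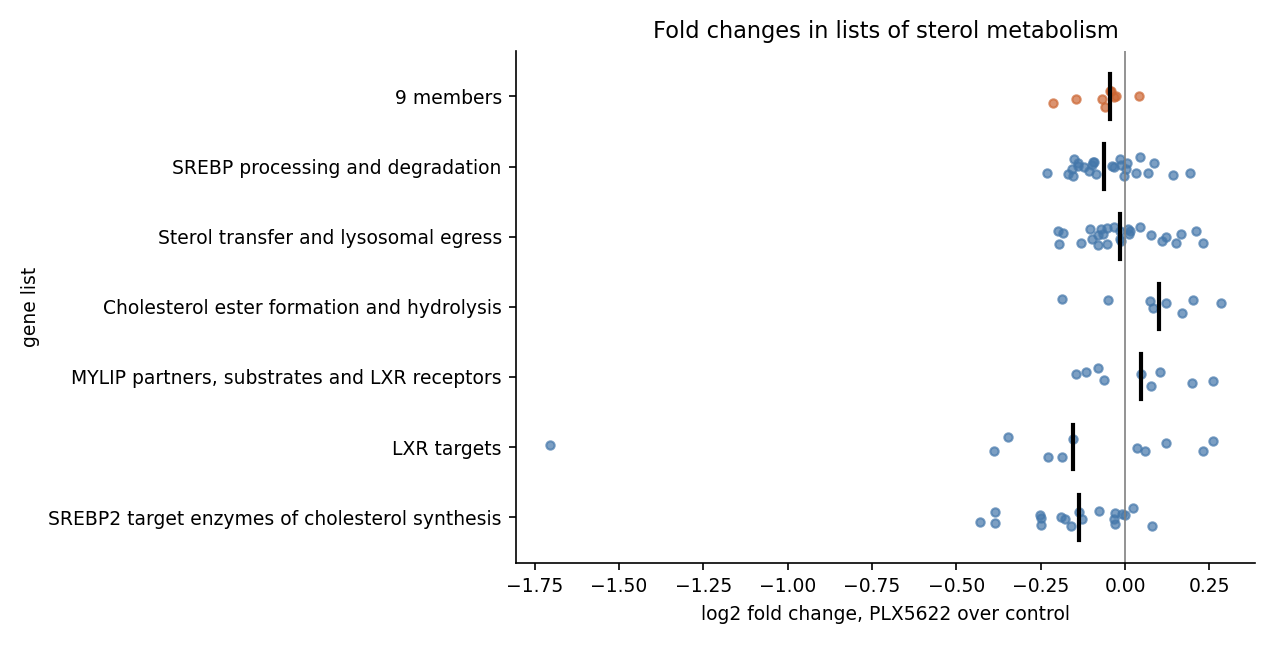
Log2 fold change of PLX5622 over control for the 9 members (orange) and for the genes of 6 lists of sterol metabolism (blue), with a bar at each median. List medians lie between -0.15 and 0.10, and Scd1 among the LXR targets, at -1.70, is the point far to the left.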

How the data were processed

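The authors' expression table gives TPM per gene and library, and their comparison table, made with DESeq2, gives a mean normalized count (a signal scaled by size factors), a log2 fold change with its standard error, a Wald score and p-values before and after adjustment, as deposited and per the file headers. The submitters' processing notes list build mm39 and, with no roles, STAR 2.7.10a, Subread 2.0.1 with featureCounts, and, under R 4.1.0, DESeq2 1.32.0; the annotation is not given in the sources used here. Libraries were not stranded, per the labels' protocols, so antisense reads are counted with a gene.

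Under R 4.3.3, limma 3.58.1 with an intensity trend was fitted to log2(TPM + 1) of genes whose mean reached 1 TPM, and p-values were adjusted by Benjamini-Hochberg over all 13739 genes; the fold changes are on this scale, which understates those of weakly expressed genes. Reads were recovered from the TPM and the authors' mean normalized counts: 100% of values below 50 reads were within 0.05 of a whole number in each library, for 15097 genes. Read numbers cover counting error only. The fit and the recovery were tested on simulated data. For the fit the simulated noise was independent between genes, so shared differences between libraries, such as in cell content, were not covered. Replicates of a diet differed beyond sampling noise (chi-square per degree of freedom at least 15.4).

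The members and lists were chosen with earlier results of these data known. The genes named are the members, the 2 genes with the smallest p in each pathway list and a fixed set (Srebf1, Abca1, Lipa, Mbtps1, Pecam1, Stab2, Alb, Clec4f, Csf1r), apart from genes that are not reported here; Vldlr, Lrp8, Idi1, Krt7, Hba-a1, Hbb-bs and the endothelial markers other than Pecam1 and Stab2 were added after their values were seen. Alternatives were other pseudocounts, filters and scalings, library weights, robust fitting or no trend in limma, voom on recovered reads, a replicate block and leaving out each library. A comparison of protein sequences in the design was not made.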

Additional observations from a re-analysis of the deposited data

How the results depend on the processing

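Over 17 alternatives limma called 0 of the 9 genes and 0 genes in all, and the smallest adjusted p of a member was 0.849. Of 153 recomputed fold changes of members, 11 changed sign, none of them called. With library weights Srebf2 was at 0.067. Without single libraries the log2 fold change ranged from -0.17 to 0.13 for Srebf2, -0.012 to 0.14 for Scap, -0.16 to 0.065 for Insig1, -0.11 to 0.0029 for Npc1, -0.060 to 0.033 for Npc2, -0.094 to 0.0084 for Stard4 and -0.29 to 0.17 for Mylip. Those of Insig2 (-0.23 to -0.08) and Soat1 (-0.31 to -0.08) kept their sign, as did the median of the 9, at -0.11 to -0.03. The log2 ratio differences ranged from 0.0077 to 0.25 for Insig1 over Insig2, 0.057 to 0.19 for Srebf2 over Srebf1, -0.054 to 0.11 for Npc2 over Npc1 and -0.027 to 0.16 for Scap over Insig1. The cause was not tested. Scaling moved the median of all genes by at most 0.02.

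Replicate numbers do not pair the libraries by any label. Each library's deviations correlated best with those of the same-numbered library of the other diet, at 0.20, 0.14 and 0.09 for replicates 1 to 3. This is a hint from the data and not the design. The deviations are centred within each diet, so the matches depend on each other and do not count as separate evidence. With the replicate block limma again called 0 genes, and the median of the 9 was -0.04.

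With 3 libraries a diet, the intervals allow changes of up to 35.9% lower and 38.7% higher in single members. The fewest reads of a member in a library were 314, with a counting error of 5.64%.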

Other observations

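Of the 14 endothelial markers, the 6 whose lowest libraries were replicate 1 of both diets were Stab2, Clec4g, Oit3, Lyve1, Kdr and Gpr182. The share of all genes with this pattern was not counted. The lectin gene Clec4g had 1545 TPM in control replicate 1 and 1780 TPM in PLX5622 replicate 1, against 2945 to 3683 TPM in the other libraries. Oit3 had 572 and 647 TPM in the same libraries, against 841 to 1207 TPM elsewhere, and Lyve1, a hyaluronan receptor, had 372 and 434 TPM against 674 to 876 TPM. Pecam1 and Vwf were highest in these libraries. Cdh5, Tek, Tie1, Eng and the sinusoidal genes Stab1 and Fcgr2b were neither: Stab1 had 1325 TPM in control replicate 1 and 1363 TPM in PLX5622 replicate 1, with 1280 TPM in PLX5622 replicate 2, and Fcgr2b was highest of all in PLX5622 replicate 1, at 359 TPM. The cadherin gene Cdh5 lay between 1124 and 1230 TPM in every library.

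Idi1, the isomerase of the mevalonate pathway, was the 1 enzyme of the cholesterol synthesis list under the filter on low values, at 0.134 to 0.690 TPM.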
